A study of Arabidopsis thaliana and Marchantia polymorpha with 6 samples.

Results

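CONSTANS (CO) and the CONSTANS-like (COL) genes of Arabidopsis thaliana encode nuclear proteins with B-box zinc fingers and a CCT domain. CO is the central gene of photoperiodic flowering: its protein accumulates in leaves in the light of long days and switches on the florigen gene FT. The relatives act on flowering time, seedling growth in light and branching. Some delay flowering, and some have little effect on it. PIF4 is a bHLH protein that promotes elongation growth in warmth and shade, and HY5 is a bZIP protein that promotes development in light. Both are known to recognise DNA elements that share an ACGT core, such as the G-box. The CO and COL3 proteins are also known to bind the COP1 ubiquitin ligase, which targets HY5 for degradation in darkness.

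The members were taken by symbol or synonym from a gene table of Arabidopsis and are CO, COL1, COL2, COL3, COL4, COL5 and COL9, 7 of 27444 protein-coding genes on the 5 nuclear chromosomes. The set was chosen by its names together with the AtPIF4 and AtHY5 events already seen at these genes. Their number, score and coincidence at the members are therefore given as a description, with no test, and nothing is read from a member count that lies above the share over all genes. The same search by name finds an eighth gene, BBX16, which has COL7 among its synonyms and is described separately.

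The series used DNA affinity purification sequencing (DAP-seq), in which a recombinant protein made in bacteria pulls down fragments of purified genomic DNA that carries no chromatin. The AtPIF4 and the AtHY5 protein were each offered fragments of about 200 bp, on average, from 10-day-old Col-0 seedlings grown on MS medium, with 1 library per protein. An Arabidopsis input and 3 Marchantia samples were not analysed here. With 1 library each there is no replicate error, read depth is unknown, and the differences between members described here cannot be set against a spread. The lists hold 6699 AtPIF4 events and 16825 AtHY5 events, each an interval of 200 bp around a centre with a score from the authors' event caller. A score is used only through its percentile, the share of events in the same list that score lower, because what it measures is not stated.

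An event was counted for a gene when its centre lay inside the gene or within 2000 bp of either end. AtPIF4 events were found at 6 of the 7 members, all but COL1, while 31.5% of all protein-coding genes had one. AtHY5 events were found at 6 of the 7, all but COL9, beside 59.9% of all genes. CO, COL2, COL3, COL4 and COL5 had events of both proteins, which is 5 members beside 25.2% of all genes. Only COL3 and COL4 had a coincident pair, meaning an AtPIF4 centre and an AtHY5 centre within 100 bp of each other, beside 16.7% of all genes. Among all genes with events of both proteins, 66.4% had such a pair.

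The member windows held 9 AtPIF4 events and 10 AtHY5 events, none of them shared between members. That is a mean of 1.29 AtPIF4 events per member against 0.407 per gene over all genes, and a mean of 1.43 AtHY5 events per member against 1.05 per gene. The windows were of similar size, with a mean of 6079 bp for members and 6385 bp for all genes. Of the member events, 5 for AtPIF4 and 6 for AtHY5 lay inside the gene. With the gene body alone, 5 members kept an AtPIF4 event (13.7% of all genes), 4 kept an AtHY5 event (30.3%), 4 kept both (9.00%) and COL3 and COL4 kept their coincident pair (6.67%). The gene table gives neither strand nor exons, so gene starts, promoters, exons and introns were not told apart, and sides are named by coordinate.

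**Figure D1:**
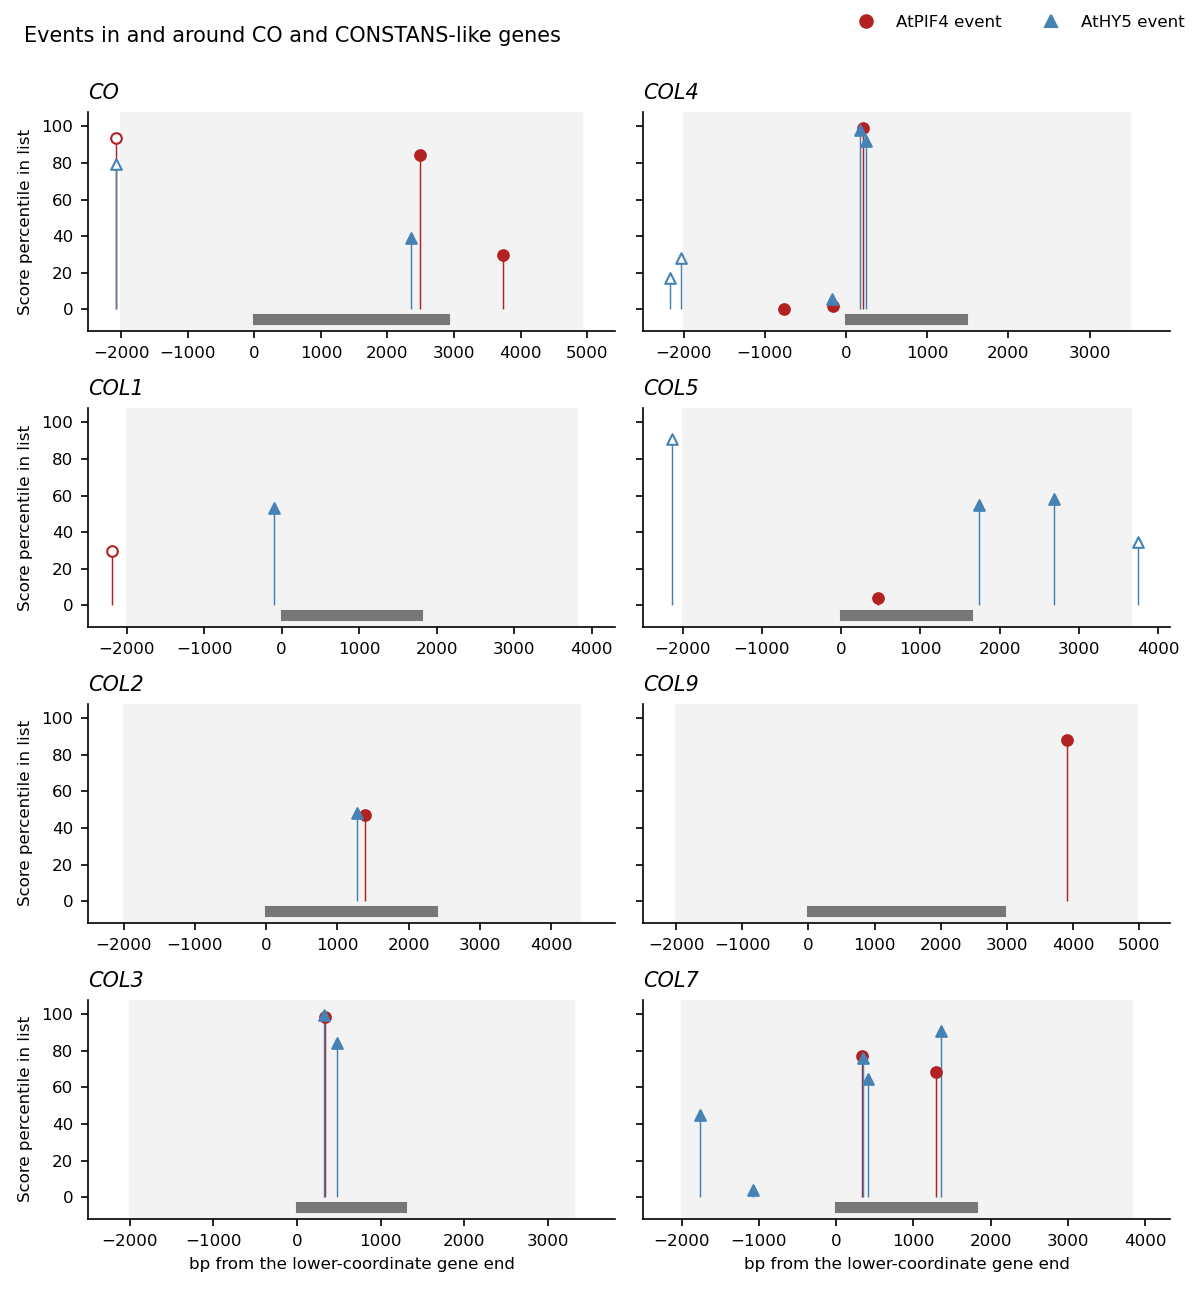
AtPIF4 events (red circles) and AtHY5 events (blue triangles) around each of the 7 members and COL7. The x axis is the distance in bp from the lower-coordinate end of the gene, the y axis is the percentile of the event's score within its own list, the dark bar is the gene and the pale band is the window of 2000 bp beyond either end; open symbols lie outside it. COL3 and COL4 hold events of both proteins above the 98th percentile inside the gene, near the lower end.

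CO, the photoperiod gene itself, carried an event of each protein inside the gene. The AtPIF4 event ranked fairly high in its list and the AtHY5 event below the middle of its own. The AtPIF4 event lay on chromosome 5 at 5172557 to 5172756, with its centre 429 bp inside the higher end of CO and a score of 266, higher than 84.5% of its list. The AtHY5 event at 5172423 to 5172622 had a score of 100.7 and stood at percentile 38.7. The centres were 134 bp apart, so the events did not count as coincident. A further AtPIF4 event of score 120 (percentile 29.5) lay 811 bp beyond the higher end, inside AT5G15845, a long noncoding RNA gene that spans the space between CO and COL1. AT5G15843, a protein-coding gene entry that overlaps CO, also has these 3 events in its window, and none of them lies inside it.

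A close pair of higher rank lay just outside the CO window. Its AtPIF4 event (score 445, percentile 93.8) was centred 2084 bp beyond the lower end of CO and its AtHY5 event (score 220, percentile 79.7) 2082 bp beyond it, only 2 bp apart. The pair lies 116 and 114 bp beyond an end of bZIP3, the neighbouring gene, and outranks the events inside CO in both lists. It is the only coincident pair within 5000 bp of CO.

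COL1, the tandem neighbour of CO, whose protein resembles CO but has little effect on flowering, had a single event. This AtHY5 event on chromosome 5 at 5175894 to 5176093 had a score of 123 (percentile 53.3) and was centred 98 bp beyond the lower end, also inside AT5G15845. No AtPIF4 event fell in the COL1 window. The nearest one is the event of percentile 29.5 between the tandem genes, 2195 bp away, so a window of 2500 bp gives COL1 both proteins. CO and COL1 thus shared no event within 2000 bp. Reads that match both tandem copies could be placed at either, and the labels and file headers do not say how such reads were treated.

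COL2, another close relative of CO with little effect on flowering, had an event of each protein near the middle of its list. The AtPIF4 event on chromosome 3 at 488356 to 488555 scored 141.5 (percentile 46.9) and the AtHY5 event at 488242 to 488441 scored 115 (percentile 48.5). Their centres lay 1012 and 1126 bp inside the higher end, 114 bp apart, and so just beyond the 100 bp limit. COL2 overlaps AT3G02370 and AT3G02390 in the gene table, but both centres fall in the stretch that belongs to COL2 alone. In both CO and COL2 the AtHY5 centre lay on the lower-coordinate side of the AtPIF4 centre, at 134 and 114 bp. Strand is not known, so this gives no shared orientation. The places in the gene differed, the CO centres being 429 and 563 bp inside the higher end. At a limit of 200 bp the pairs of CO and COL2 both count as coincident.

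COL3, which promotes seedling development in light and acts in branching, held the highest-ranked AtHY5 event among the members. The AtPIF4 event on chromosome 2 at 10567072 to 10567271 had a score of 956 and stood at rank 105 of its list, percentile 98.4. The AtHY5 event at 10567057 to 10567256 had a score of 1648.6 and stood at rank 86 of its list, percentile 99.5. The centres were 15 bp apart, 335 bp (AtPIF4) and 320 bp (AtHY5) inside the lower end of the gene. Another AtHY5 event, of score 258.3 and percentile 84.1, lay 143 bp from the AtPIF4 centre on the other side, also inside COL3.

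These strong events also count for neighbours of COL3. AT2G24780 has no event inside it. The AtPIF4 and AtHY5 centres lie 989 and 974 bp beyond its end, so it gains both events in a window of 1000 bp although they sit within COL3. ARF3 (AT2G24765), the next gene beyond it, takes in the same pair within 2000 bp. Counted by flanking events, the same position is thus listed under COL3 and both of these neighbours.

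COL4, known as a repressor of flowering with a role in salt and abscisic acid responses, had the most events of any member, with 3 for each protein. Its leading AtPIF4 event on chromosome 5 at 8589567 to 8589766 had a score of 1115.2, rank 76 and percentile 98.9, the highest AtPIF4 rank among the members. Strong AtHY5 events stood on both sides of it. The event at 8589530 to 8589729 had a score of 934.7 (percentile 98.3) and the event at 8589603 to 8589802 a score of 387.3 (percentile 91.8). Their centres lay 37 and 36 bp from the AtPIF4 centre, and all 3 were 172 to 245 bp inside the lower end of the gene. Of the 3170 AtPIF4 events in the list with an AtHY5 event within 100 bp, 116 (3.66%) had AtHY5 events on both sides in this way. The neighbour AT5G24940 has no event inside it but also takes in these strong COL4 events within 2000 bp.

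Beyond the lower end of COL4 the events were weak. A pair centred 166 bp (AtPIF4) and 167 bp (AtHY5) from the gene was 1 bp apart, with scores of 81.8 and 65.0 at percentiles 1.51 and 5.78. An AtPIF4 event 766 bp out had a score of 79, the lowest score in the AtPIF4 list. Outside the window, AtHY5 events of percentiles 27.9 and 17.0 lay 26 and 170 bp past its limit. COL4 thus held events from the top of both lists and from the bottom of both lists within about 1000 bp.

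COL5, which can promote flowering when overexpressed, had no high-ranked event in its window. The AtPIF4 event on chromosome 5 at 23355703 to 23355902 lay 465 bp inside the lower end and scored 85.6, at percentile 4.05. Both AtHY5 events lay beyond the higher end, at 93 bp with a score of 125.4 (percentile 54.7) and at 1029 bp with a score of 133 (percentile 58.1). The nearest AtHY5 centre to the AtPIF4 centre was 1280 bp away. A stronger AtHY5 event, of score 365.8 and percentile 90.9, lay 136 bp outside the window on the lower side, and one of percentile 34.4 lay 96 bp outside it on the higher side.

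COL9, which delays flowering by lowering CO and FT expression, had an AtPIF4 event and no AtHY5 event. The AtPIF4 event on chromosome 3 at 2445377 to 2445576 had a score of 312.6 (percentile 88.3). Its centre lay 944 bp beyond the higher end of COL9 and inside the neighbour AT3G07660. No event of either protein fell inside COL9. The nearest AtHY5 centre was 10674 bp from the gene, the longest such distance among the members.

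By the strongest AtPIF4 event of each gene, the order from the top was COL4 (percentile 98.9), COL3 (98.4), COL9 (88.3), CO (84.5), COL2 (46.9) and COL5 (4.05), with none at COL1. By the strongest AtHY5 event it was COL3 (99.5), COL4 (98.3), COL5 (58.1), COL1 (53.3), COL2 (48.5) and CO (38.7), with none at COL9. COL3 and COL4 led both orders, and their places relative to each other were exchanged. CO stood well above the middle of the AtPIF4 list and below the middle of the AtHY5 list. COL5 stood near the bottom of the AtPIF4 list and only somewhat above the middle of the AtHY5 list. With 1 library per protein, no neighbours in either order can be said to differ beyond a replicate spread. An event at percentile 90 or higher was found at 2 members for AtPIF4 (3.77% of all genes) and at 2 members for AtHY5 (8.98% of all genes), COL3 and COL4 each time. Both orders and these counts hold for the window of 2000 bp and would change at 2500 bp. There the pair near bZIP3 would place CO at percentiles 93.8 (AtPIF4) and 79.7 (AtHY5). COL5 would stand at percentile 90.9 for AtHY5, and COL1 would gain an AtPIF4 event at percentile 29.5.

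**Figure D2:**
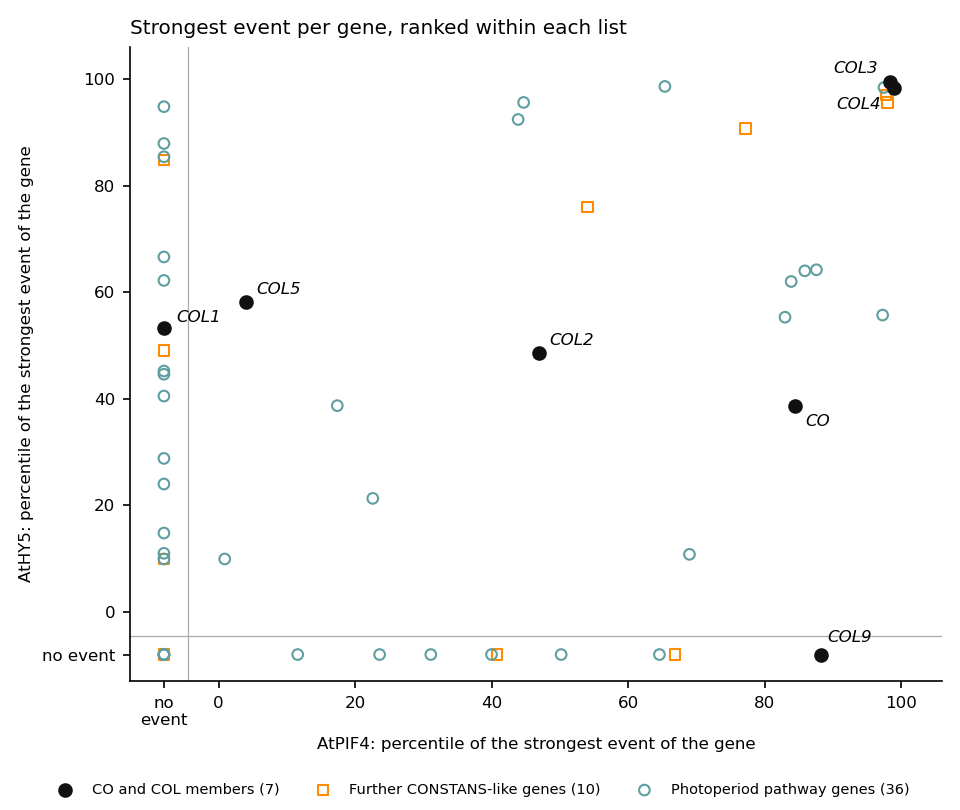
Percentile of the strongest AtPIF4 event (x axis) and the strongest AtHY5 event (y axis) of each gene within its own list, for the 7 members (black, named), 10 further CONSTANS-like genes (orange squares) and 36 photoperiod pathway genes (blue-green circles). Genes without an event of a protein stand in the strip marked "no event"; COL3 and COL4 lie in the upper right corner with percentiles of 98.3 or higher on both axes.

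COL3 and COL4 stood near the head of all genes with a coincident pair when each pair was ranked by the lower of its 2 percentiles. For COL3 that value was 98.4 and for COL4 98.3. Within gene bodies alone, 1831 genes had a coincident pair, of which 4 ranked above COL3 and 6 above COL4, COL3 being 1 of those 6. The others above COL4 were AT2G01008, AT2G07749, HAP2, a gene needed for gamete fusion, AT2G28780 and AT1G62760, named here after their values were seen. With the window of 2000 bp, 15 of 4588 genes ranked above COL3 and 20 above COL4, and neighbours that share an event are counted separately there. A coincident pair with both events at percentile 98 or higher, a limit set with the values of COL3 and COL4 in view, was present at 31 genes, or 0.113% of all genes.

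The strong coincident pairs of COL3 and COL4 did not have the commonest spacing. In the whole lists, 1282 of 3355 pairs within 100 bp (38.2%) had centres 1 or 2 bp apart. Of the 4 member pairs, only the weak pair beyond the end of COL4 was spaced like this. The strong pairs stood 15 bp apart at COL3 and 36 and 37 bp apart at COL4, where they share the same AtPIF4 event. Over the whole lists, 49.3% of pairs within 100 bp were as close as the COL3 pair. For the COL4 pairs the shares were 66.2% and 67.2%, so these spacings are ordinary ones. Pairs 10 to 50 bp apart, a range that holds these distances, numbered 1068 (31.8%) in the whole lists. How precisely a centre is placed was not assessed. The strong events lay 320 to 335 bp inside the lower-coordinate end in COL3 and 172 to 245 bp inside it in COL4. Whether that end is the start of each gene is not given in the table used.

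**Figure D3:**
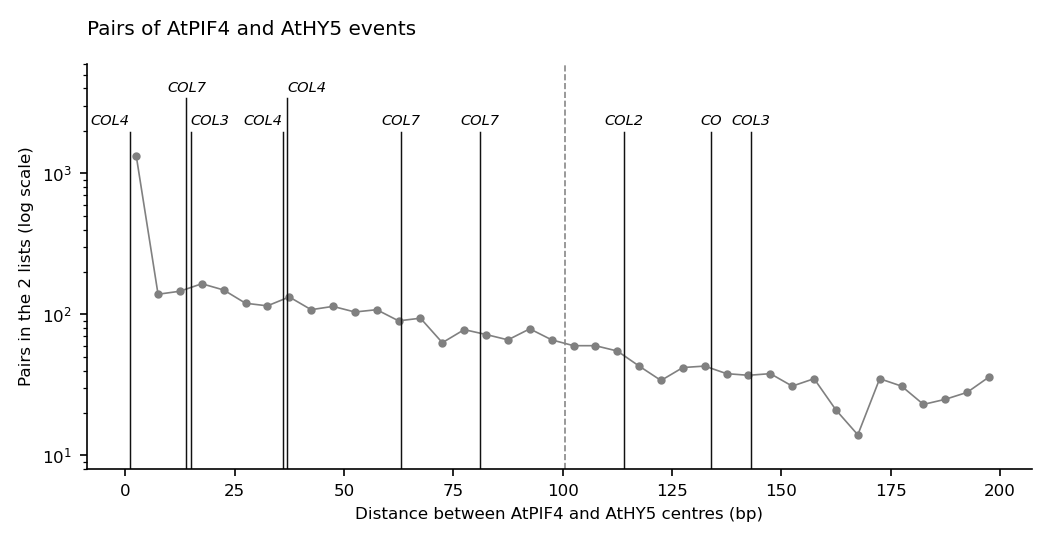
Number of AtPIF4 and AtHY5 event pairs (grey points, y axis, log scale) by the distance between their centres in bp (x axis, bins of 5 bp) over the whole lists, with the pairs of CO, COL2, COL3, COL4 and COL7 marked by vertical lines; the dashed line is the 100 bp limit. COL2 at 114 bp and CO at 134 bp fall just beyond the limit, and only the weak COL4 pair at 1 bp falls in the first bin, the highest point.

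COL7 (BBX16), a B-box gene that acts in shade responses and branching, had more events than any of the 7 members, with 2 for AtPIF4 and 5 for AtHY5. An AtPIF4 event on chromosome 1 at 27779217 to 27779416 (score 219, percentile 77.2) lay 332 bp inside the lower end. AtHY5 events of percentiles 76.3 and 64.8 were centred 14 and 81 bp from it. At the other end of the gene an AtPIF4 event of score 187 (percentile 68.6) lay 536 bp inside and the strongest AtHY5 event of COL7, with a score of 360 (percentile 90.7), 63 bp from it. The remaining AtHY5 events lay 1076 and 1767 bp beyond the lower end at percentiles 3.64 and 45.0. With COL7 added, 3 of 8 genes had a coincident pair, beside 16.7% of all genes.

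The rest of the CONSTANS-like branch was described with a list of 10 genes, COL7 among them, which the gene table names BBX8, BBX9, BBX10, BBX12, BBX13, BBX14, BBX15, BBX16, BBX17 and AT2G47890. AtPIF4 events were found at 6 of the 10 (31.5% of all genes) and AtHY5 events at 7 (59.9% of all genes). Both proteins had events at 4 (25.2% of all genes). These same 4 genes, BBX10, BBX14, BBX15 and BBX16, had coincident pairs (16.7% of all genes). BBX17 had no event of either protein. The median was 1 AtPIF4 event and 1.5 AtHY5 events per gene, beside 1 and 1 over the 7 members and 0 and 1 over all genes.

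BBX14 and BBX15 carried strong events of both proteins. In BBX15 the AtPIF4 event on chromosome 1 at 8934938 to 8935137 (score 821, percentile 97.8) and the AtHY5 event at 8934937 to 8935136 (score 691.7, percentile 97.0) were 1 bp apart and lay 507 and 508 bp inside the gene. BBX14 had an AtPIF4 event of score 837 (rank 134 of its list) at 469 bp inside the gene, with an AtHY5 centre of percentile 95.5 also inside the gene and 1 bp away. Its strongest AtHY5 event, of score 556 (percentile 95.6), lay 472 bp beyond an end and 2 bp from an AtPIF4 event, a further coincident pair. Thus COL3, COL4, BBX14 and BBX15 each held, inside the gene, a coincident pair of high percentile in both lists. The strong pairs of COL3 and COL4 were 15 to 37 bp apart, while the pairs inside BBX14 and BBX15 were 1 bp apart.

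Among 36 genes of the photoperiod pathway around CO, including the genes that set CO transcription, the partners and degraders of the CO protein and the floral targets downstream, 19 had an AtPIF4 event, 26 an AtHY5 event, 13 both and 11 a coincident pair. Those shares of 52.8%, 72.2%, 36.1% and 30.6% stand beside 31.5%, 59.9%, 25.2% and 16.7% over all genes. The medians were 1 event per gene for each protein. The highest AtPIF4 percentiles were 97.5 at AT1G69570, 97.3 at FBH3, which encodes a bHLH activator of CO, and 87.6 at PHYB, the red light receptor gene. The highest AtHY5 percentiles were 98.6 at LFY, a floral meristem identity gene, 98.4 at AT1G69570 and 95.6 at GI, a gene that raises CO transcription in long days.

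FT, the target of the CO protein, had only low-ranked events. Its AtPIF4 event of score 113 (percentile 22.6) and its AtHY5 event of score 80 (percentile 21.3) lay 1243 and 1345 bp beyond an end of the gene, 102 bp apart. TSF, the close relative of FT, had an AtPIF4 event at percentile 43.9 and an AtHY5 event at percentile 92.4. AGL20, also called SOC1, FD, CDF2 and NF-YC3 had no event of either protein.

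**Figure D4:**
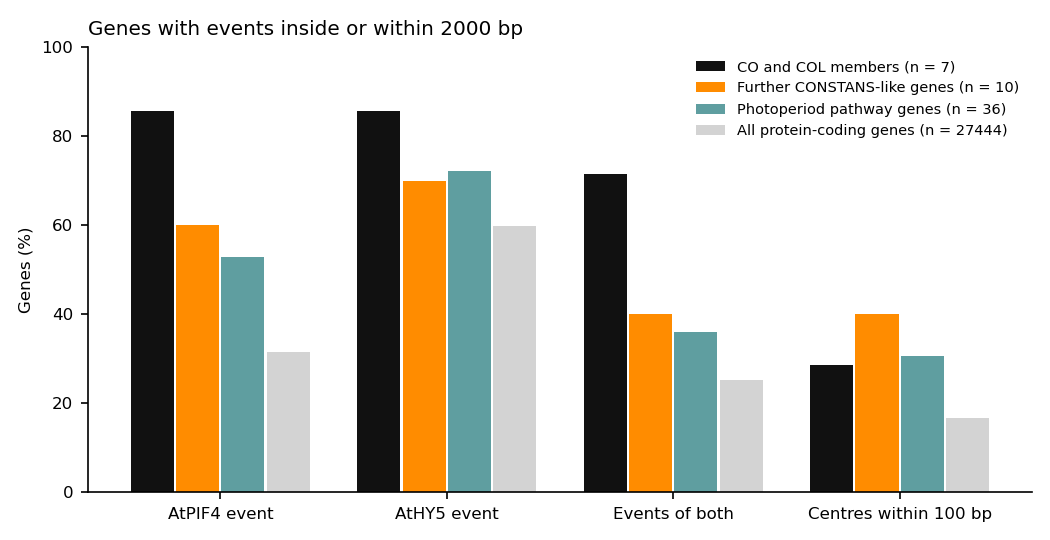
Percentage of genes (y axis) with an AtPIF4 event, an AtHY5 event, events of both proteins or a pair of centres within 100 bp, inside the gene or within 2000 bp, for the 7 members (black), 10 further CONSTANS-like genes (orange), 36 photoperiod pathway genes (blue-green) and all 27444 protein-coding genes (grey). For coincident pairs the members (2 of 7, 28.6%) stand below the 10 further genes (4 of 10) and close to the pathway list (30.6%). The share over all genes is 16.7%.

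For each member with both proteins, the gene of these lists with the most similar percentiles was sought over the 2 libraries, with likeness taken as the larger of the 2 differences in percentile points. Of the 46 listed genes, 17 had events of both proteins and could be compared. COL3 was most like AT1G69570 (1.04 points) and COL4 most like BBX15 (1.32 points). The nearest genes to the other members were farther off, with PHYA at 16.5 points from CO, FBH1 at 19.4 points from COL5 and FT at 27.3 points from COL2. A likeness over 2 values ranks genes and carries no error.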

How the data were processed

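Event lists of the AtPIF4 and AtHY5 DAP-seq libraries were analysed, 1 library each. The submitters' processing notes name Trim Galore, Bowtie2 and the build TAIR10 without versions. The caller was GEM, per the file headers. The deposited value is a score per event from the authors' caller, whose scale, filters and use of the input are not given in the sources used here. Scores were ranked within each list only.

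Genes came from a RefSeq table of TAIR10.1, so only event coordinates are printed (1-based, TAIR10). Events lay inside protein-coding genes at 63.1% (AtPIF4) and 65.3% (AtHY5), and at 55.3% to 56.3% when shifted by 1000 bp either way, as a check of the coordinate match. All 46 listed pathway and family genes were found by identifier. Distances were computed in Python 3.11.15 with pandas 2.3.3, and the counting was tested on simulated data. The members and lists were chosen with earlier results of these data known. Named genes were all members, the 3 highest percentiles per protein and list, some of the neighbours that share a member's event, and the gene most like each member. Other list genes were named after their values were seen. Alternatives were windows of 1000 and 500 bp and the gene body alone, events above the median score, equal list lengths and pair limits of 20, 50 and 200 bp. A window of 2500 bp and the addition of COL7 were chosen after seeing the data. Planned sequence descriptions were not run, as no sequence was used here.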

Additional observations from a re-analysis of the deposited data

How the results depend on the processing

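Of 54 values under other settings, 48 stayed close to the main value (counts within 1.5 times, percentiles within their 95% Wilson interval) and 6 did not. Many of these 48 had no room to move. Percentiles were compared only at 1000 and 500 bp, where a strongest event inside the gene stays the same. Cutting the AtHY5 list leaves AtPIF4 values unchanged. Falls from 6 to 4 members counted as close, as with events above the median score (AtPIF4 17.5% and AtHY5 37.2% of all genes). The interval reflects the length of the list and no replicate spread. With the AtHY5 list cut to the length of the AtPIF4 list, 2 members had an AtHY5 event (31.1% of all genes) and 2 had both proteins (16.3% of all genes), COL3 and COL4 each time. With events above the median score, 2 members had both proteins (11.6% of all genes), again COL3 and COL4. With a pair limit of 200 bp, 4 members had a coincident pair (18.3% of all genes), CO and COL2 being added. With 1000 or 500 bp the strongest AtHY5 event of COL5 stood at percentile 54.7. COL9 had no AtPIF4 event within 500 bp and so no value there. With 2500 bp, a limit chosen after seeing the data, 7 members had an AtPIF4 event (35.4% of all genes), 6 had both (29.1%) and 3 a coincident pair (19.1%), CO being added to the last. COL3 and COL4 had a coincident pair under every window, score and distance setting run, but at a limit of 20 bp COL4 counted only through its weak pair 1 bp apart (percentiles 1.51 and 5.78), its strong pairs being 36 and 37 bp apart. No paired analysis was possible because each protein has 1 library. Without read counts, depth was not assessed, and a member without an event may have one below the authors' threshold.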
